A study of Mus musculus with 9 samples.

Results

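Axon guidance ligands and receptors are the cell surface and secreted proteins that steer growing axons and migrating neurons. The genes described here are those with a symbol of the semaphorin (Sema3 to Sema7), plexin, neuropilin, Eph receptor, ephrin, Slit, Robo, netrin (Ntn), Unc5 or Dcc families and a probe set that names a single gene. They numbered 68 of 19938 genes with such a probe set, 35 of them ligands and 33 receptors. By family they were 20 semaphorins, 11 plexins and neuropilins, 13 Eph receptors, 8 ephrins, 7 Slits and Robos, and 9 netrins, Unc5 receptors and Dcc.

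Their levels were read in 9 samples of total RNA from mice at postnatal day 13, each on its own Affymetrix Mouse Gene 1.0 ST array. The groups, of 3 arrays each, were wildtype cerebellum, cerebellum labelled SufuKO and medulloblastoma labelled Ptch1KO, called the tumours here. The label Ptch1KO occurs only with medulloblastoma, and the labels wildtype and SufuKO only with cerebellum. Genotype and tissue therefore cannot be told apart in any comparison with the tumours. Sufu and Ptch1 are both negative regulators of Hedgehog signalling, and medulloblastoma is a tumour of the cerebellum. The labels used here name no strain, sex, deleting transgene or deleted exon, and they leave unsaid whether a group's arrays hold RNA of different mice. The p-values therefore describe the scatter among these arrays, which may be technical. In each mutant group the female RNA Xist was high on 1 array and not on the others, so the arrays of each hold RNA of more than 1 mouse.

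In the netrin system, Dcc mediates attraction to netrin, while the Unc5 receptors mediate repulsion, alone or with Dcc. Slits repel axons and cells that carry Robo receptors. Semaphorins signal through plexins, and most secreted class 3 semaphorins need a neuropilin as coreceptor. Ephrins are membrane-bound ligands of the Eph receptor tyrosine kinases, those of class A through a lipid anchor and those of class B through a transmembrane domain. In the developing cerebellum these systems act on granule cells. Their progenitors divide in the outer layer, and the granule neurons then extend parallel fibres and migrate inward past the Purkinje cells. Unc5c, Sema6a, Plxna2 and Plxnb2 are each known to be needed there for normal granule cell proliferation or migration.

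The arrays' medians lay between 6.72 and 6.79 on the log2 scale. Sufu was 1.86-fold lower in Sufu KO than in wildtype. Ptch1 was 2.03-fold higher in the tumours, which checks nothing, because the labels do not name the deleted part of the gene. In Sufu KO Ptch1 differed from wildtype by -0.06 (adjusted p = 0.607). Along the main axis of variation over all genes tested, the tumours of replicates 1 and 2 lay at 41.3 and 39.9 and that of replicate 3 at 26.1, nearer to the wildtype arrays at -32.1 to -36.0. The Xist RNA of females was high on 3 wildtype arrays and on 1 array of each mutant group, so sex differed between the groups.

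Of the 68 genes, 67 were tested. Epha1 was not, because it exceeded the 25th percentile of its array on 2 arrays and the filter asked for 3; its group means were 5.23, 5.18 and 5.18 (log2) in wildtype, Sufu KO and the tumours. In Sufu KO against wildtype, 33 of the 67 (49.3%) changed (limma, adjusted p under 0.05), where 25.4% of all genes tested did. Of the 67, 17 rose, where 13% of all genes did, and 16 fell, where 12.4% did. The Sufu KO arrays all lay above the wildtype ones for 21 of the 67 (21.3% of all genes) and below them for 22 of the 67 (19.6%). The tumour arrays all lay above wildtype for 21 of the 67 (26.4% of all genes) and below it for 28 (30.2%). They all lay above Sufu KO for 16 of the 67 (16.1% of all genes) and below it for 29 (23.6%). The count that rose in Sufu KO was 9 without wildtype replicate 2, 11 without wildtype replicate 3 and 10 without Sufu KO replicate 3. These 3 counts have no share of all genes from the same fits beside them. How they compare with all genes was therefore not tested. In the tumours against wildtype, 48 of the 67 (71.6%) changed, where 46.8% of all genes did. Of the 67, 20 rose, where 22.1% of all genes did, and 28 fell, where 24.7% did. Between the mutants 36 of the 67 (53.7%) differed, where 29.7% of all genes did. Of the 67, 9 were higher in the tumours, where 12.2% of all genes were, and 27 lower, where 17.5% were. With sex as a covariate, the calls of Efnb1, Epha7, Ephb1, Nrp2, Ntn4, Plxna2, Robo1 and Sema3d ended in Sufu KO (adjusted p from 0.0511 to 0.166), as did those of Ntn3, Sema3d and Sema4c in the tumours (0.0538 to 0.149). The same covariate added Epha3 (0.00419) and Epha6 (0.00860) as higher and Sema4d (0.0416) as lower in Sufu KO, and Epha7 (0.0382) as higher in the tumours than in Sufu KO. After a second quantile normalization the calls of Efnb1 (0.0610) and Plxna1 (0.0661) ended in Sufu KO, that of Unc5c (0.0662) in the tumours and that of Sema6a (0.437) between the mutants. It added Unc5c (0.0375) as higher and Robo4 (0.0274) as lower in Sufu KO, Plxnb1 (0.0342) as higher in the tumours, and Epha7, Ntn3, Plxnb1 and Plxnb2 as higher in the tumours than in Sufu KO (0.00552 to 0.0411).

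Most of these differences were modest. The median absolute log2 difference of the 67 genes was 0.27 in Sufu KO and 0.46 in the tumours, beside 0.12 and 0.19 over all genes tested. Their signed medians were -0.02 and -0.13, beside -0.01 for all genes in both comparisons. In Sufu KO, Dcc was the 1 member that changed by at least 1 log2 unit, a size that 1.14% of all genes reached upward and 0.221% downward. In the tumours 3 of the 67 rose that far, namely Dcc, Sema7a and Plxnc1, where 3.43% of all genes did. Those that fell that far were 6 of the 67, namely Plxna4, Slit3, Sema5a, Plxna1, Unc5a and Sema4d, where 4.02% of all genes did. Between the mutants 0 members were that much higher in the tumours, where 0.754% of all genes were, and Epha6 was the 1 that was lower, where 1.13% were. In the tumours 12 ligands rose and 12 fell, with a median difference of -0.01 over the 35 ligands. There 8 receptors rose and 16 fell, with a median of -0.20 over the 32 tested. The shares that changed were 68.6% of ligands and 75% of receptors, beside 46.8% of all genes. Whether ligands and receptors differ was not tested.

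**Figure D1:**
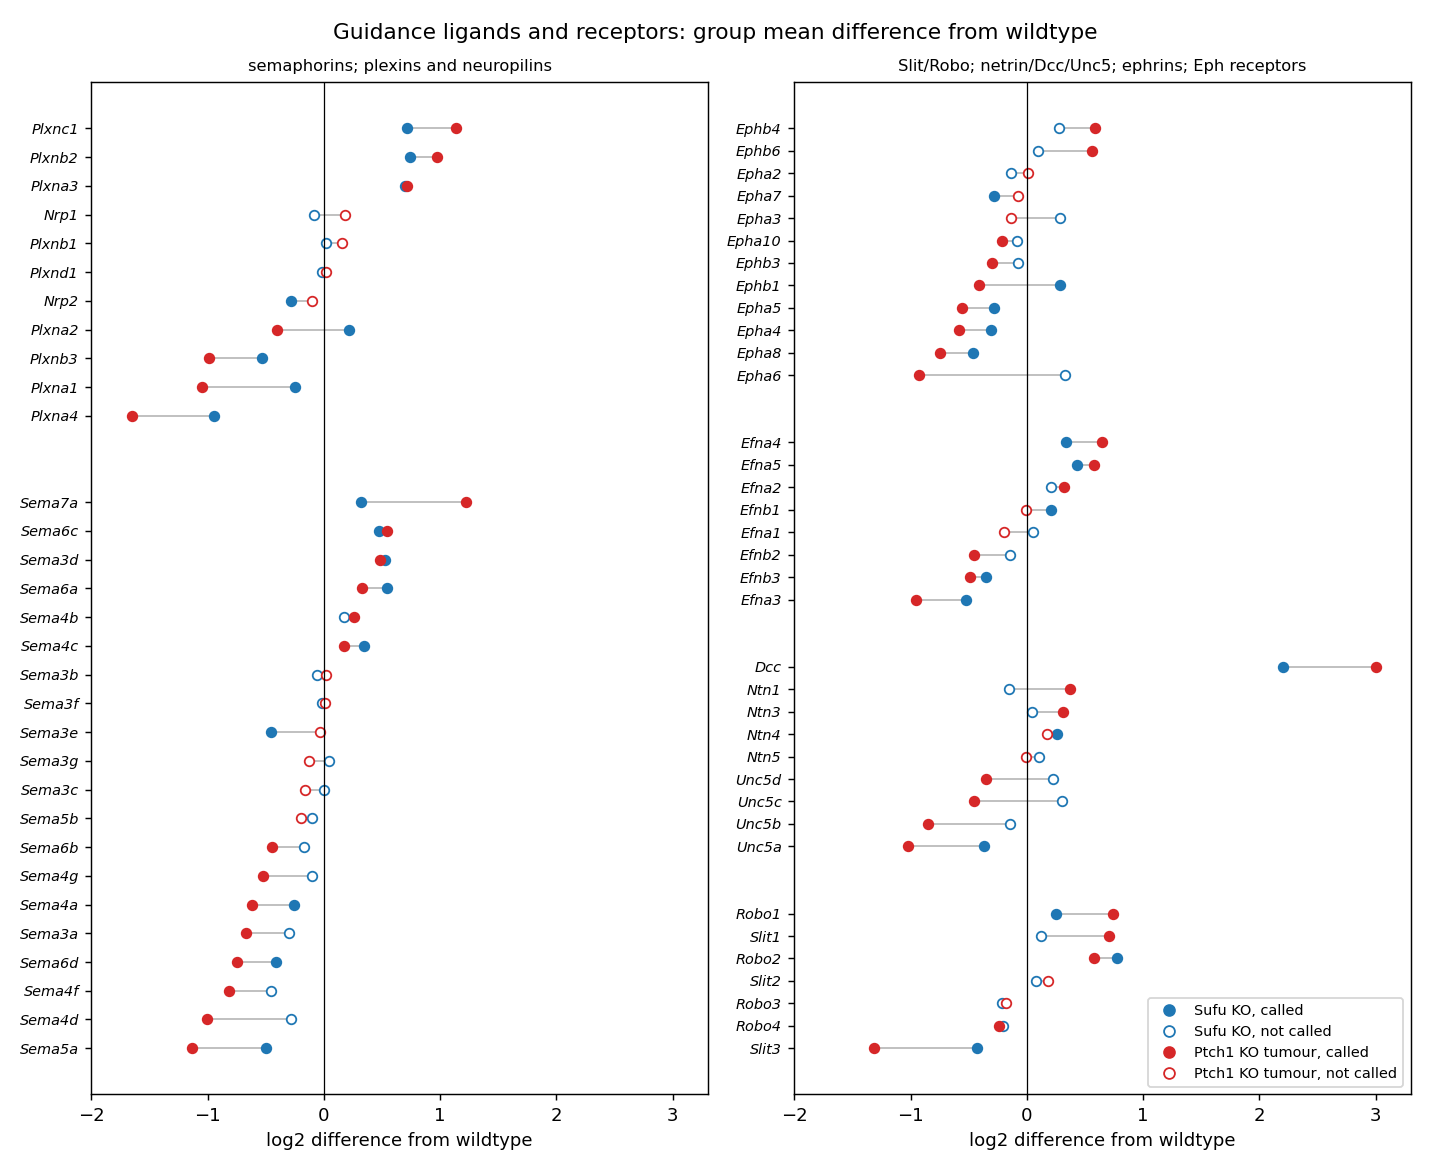
Log2 difference of the group means from wildtype (horizontal axis) for each of the 67 tested guidance genes, grouped by family, for Sufu KO (blue) and the tumours (red); filled points passed the adjusted p threshold and open points did not. Dcc stands far to the right in both mutants, at 2.21 and 3.0, and the lowest point is Plxna4 in the tumours at -1.65.

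Markers of several cell types moved with the groups. For scale, 13% of all genes tested rose and 12.4% fell in Sufu KO, and 22.1% rose and 24.7% fell in the tumours. The list of mature granule neuron markers (9 of 9 tested) averaged 11.22 to 11.41 (mean log2 per array) in wildtype, 10.59 to 10.65 in Sufu KO and 9.20 to 9.88 in the tumours, and 7 of 9 fell in Sufu KO and 9 of 9 in the tumours. Dividing cell markers averaged 6.88 to 7.24, 8.87 to 9.04 and 9.61 to 10.01, with 7 of 7 higher in each mutant. Markers of Hedgehog-responsive granule neuron progenitors rose in 8 of 9 and 9 of 9 cases, from 7.93 to 8.22 in wildtype to 9.29 to 9.40 and 9.98 to 10.34. The 1 that did not pass in Sufu KO was Gli1 (-0.12, adjusted p = 0.537), which rose 3.51-fold in the tumours. Purkinje cell markers fell in 6 of 6 cases in each mutant (10.53 to 10.63 in wildtype, 9.96 to 10.04 in Sufu KO and 8.68 to 8.82 in the tumours). Interneuron markers fell in 5 of 6 and 6 of 6 (9.03 to 9.06, 8.27 to 8.33 and 7.23 to 7.49), and oligodendrocyte markers in 6 of 6 and 6 of 6 (10.69 to 10.95, 9.96 to 10.41 and 8.53 to 8.83). Bergmann glia and astrocyte markers fell in 7 of 8 cases in each mutant, and endothelial and pericyte markers in 5 of 9 and 8 of 9. In tissue RNA, fewer cells of a type and less RNA per cell cannot be told apart, and the part of these shifts in the guidance results was not tested.

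Other lists gave mixed counts, some of them near the shares of all genes that rose or fell. Oligodendrocyte precursor markers had 1 higher and 2 lower of 6 in Sufu KO and 3 higher and 1 lower in the tumours. Microglia markers rose in 1 of 7 and 3 of 7 cases, and choroid plexus markers in 3 of 5 and 2 of 5. Meningeal fibroblast markers had 5 of 6 lower in Sufu KO, and 1 higher and 2 lower in the tumours. Brainstem and midbrain neuron markers had 1 higher and 1 lower of 5 in each.

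RefSeq (GRCm38.p6) gave a window from 250 bases before to 50 after the start for 58 of the 68 genes, 74 windows in all, with a median GC content of 64.2% beside 52.7% for all 32851 windows. The Gli consensus GACCACCCA, searched on both strands, was in 0 of the 74 windows and in 0.253% of all windows. The E-box CAGCTG, a palindrome that basic helix-loop-helix factors such as Atoh1 can bind, was in 12 of the 74 (16.2%) and in 16.3% of all. The 250 upstream bases of 3 genes that hold it are shown, 5′ to 3′ on the gene's strand with the E-box in capitals, because these genes are among those that rose in both mutants (Sema7a and Robo2) or fell in the tumours (Sema4d). The windows lie at chr9:57939862-57940111 (plus strand), chr16:74411826-74412075 (minus strand) and chr13:51756684-51756933 (minus strand), in that order. A match is a run of letters and not a measured binding site.
Sema7a: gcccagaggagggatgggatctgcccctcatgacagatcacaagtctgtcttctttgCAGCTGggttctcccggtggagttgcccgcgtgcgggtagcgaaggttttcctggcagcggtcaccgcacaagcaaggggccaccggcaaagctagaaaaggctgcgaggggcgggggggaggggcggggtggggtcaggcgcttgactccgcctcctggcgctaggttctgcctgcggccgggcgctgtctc
Robo2: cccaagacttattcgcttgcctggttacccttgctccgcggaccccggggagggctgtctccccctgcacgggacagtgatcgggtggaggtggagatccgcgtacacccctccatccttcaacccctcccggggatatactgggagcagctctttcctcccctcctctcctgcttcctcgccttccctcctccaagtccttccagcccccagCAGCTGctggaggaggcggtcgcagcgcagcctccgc
Sema4d: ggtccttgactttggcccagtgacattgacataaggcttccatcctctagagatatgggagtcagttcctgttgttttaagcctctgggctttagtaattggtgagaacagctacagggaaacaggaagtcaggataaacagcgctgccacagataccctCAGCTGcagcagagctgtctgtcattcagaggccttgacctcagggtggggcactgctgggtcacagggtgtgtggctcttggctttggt

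In the tumours the netrin receptors split by class. Dcc, the receptor of netrin attraction, rose in both mutants and went higher in the tumours than in Sufu KO. All 4 Unc5 receptors fell in the tumours, where 24.7% of all genes fell. In Sufu KO Unc5a fell, while Unc5b (-0.14), Unc5c (0.30) and Unc5d (0.22) did not pass. Dcc read 7.83, 7.42 and 7.85 (log2) on wildtype replicates 1 to 3, 9.78, 9.91 and 10.03 on the Sufu KO arrays, and 10.84, 10.76 and 10.52 on the tumour arrays. No group overlapped another. The rise was 4.61-fold in Sufu KO (log2 difference 2.21 ± 0.12, SE, n = 3 per group, adjusted p = 7.40e-07) and reached 8.03-fold in the tumours (2.74 to 3.27 in log2 units as the 95% interval, adjusted p = 5.96e-09). Between the mutants the tumours were 1.74-fold higher (0.80 ± 0.12, adjusted p = 0.000361). All 3 calls held under each of the 19 alternatives to the processing.

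Unc5a, a repulsive netrin receptor, read 8.19, 8.20 and 8.26 in wildtype, 7.75, 7.89 and 7.89 in Sufu KO, and 7.04, 7.04 and 7.50 in the tumours. The 3 groups stood apart in descending order. It was 1.29-fold lower in Sufu KO (adjusted p = 0.0268) and 2.03-fold lower in the tumours (-1.02 ± 0.11, SE, adjusted p = 7.77e-06). Unc5b, a paralogue that is also prominent in blood vessels, was 1.80-fold lower in the tumours (adjusted p = 3.23e-05), the wildtype mean being 9.30 ± 0.15 (SD, n = 3), that of Sufu KO 9.16 ± 0.12 and that of the tumours 8.45 ± 0.19.

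Unc5c, which in mice is required to keep granule cells within the cerebellum, read 10.61, 10.36 and 10.51 in wildtype, 10.71, 10.85 and 10.82 in Sufu KO, and 9.99, 9.80 and 10.31 in the tumours. Its Sufu KO arrays were all above the wildtype ones and its tumour arrays all below. The tumours lay 1.37-fold below wildtype (adjusted p = 0.00550), and the difference in Sufu KO was 0.30, with a 95% interval from 0.05 to 0.55 (adjusted p = 0.0777). Unc5d, another member of the family, stood at 0.22 in Sufu KO (adjusted p = 0.130) and -0.35 in the tumours (adjusted p = 0.0112). The direct test between the mutants put all 4 Unc5 receptors lower in the tumours, by 0.65 (Unc5a), 0.71 (Unc5b), 0.76 (Unc5c) and 0.57 (Unc5d) log2 units, with adjusted p from 0.000372 to 0.000925. In that comparison 17.5% of all genes were lower. The dimmer probe set of Unc5d gave -0.33 in that comparison (adjusted p = 0.0287 over all single-gene probe sets), -0.01 in Sufu KO (0.958) and -0.34 in the tumours (0.0151).

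Among the ligands, Ntn1, the main attractant for Dcc-bearing axons, read 8.60, 8.48 and 8.51 in wildtype, 8.36, 8.28 and 8.47 in Sufu KO, and 9.02, 8.92 and 8.76 in the tumours. The tumours exceeded wildtype 1.29-fold (adjusted p = 0.00231), and Ntn1 was 1.44-fold higher there than in Sufu KO (adjusted p = 0.000418). In Sufu KO the difference from wildtype was -0.16 (adjusted p = 0.195). Ntn4, a netrin of basement membranes, read 8.26, 8.12 and 8.14, then 8.52, 8.37 and 8.41, then 8.32, 8.35 and 8.38. It rose in Sufu KO by 0.26 (adjusted p = 0.0143) and stood 0.17 above wildtype in the tumours (adjusted p = 0.0542). Ntn3 rose by 0.31 in the tumours (adjusted p = 0.0190), and Ntn5 differed by 0.10 and -0.01 and did not pass.

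Several of the smaller netrin family calls rested on few arrays. In Sufu KO, the Unc5a call ended without any 1 of the wildtype arrays or Sufu KO replicate 1 or 2 (adjusted p up to 0.0824), and that of Ntn4 without wildtype replicate 2 or 3 (up to 0.0637), while Unc5c passed as higher without tumour replicate 2 or 3 (down to 0.0204) and after a second quantile normalization (0.0375) and Unc5d without wildtype replicate 1 (0.0338). In the tumours the calls ended for Unc5d without wildtype replicate 1 or tumour replicate 2 (up to 0.0565), for Ntn3 without wildtype replicate 3 or tumour replicate 2 (up to 0.0887) and for Unc5c after a second quantile normalization (0.0662), while Ntn4 passed without wildtype replicate 1 or Sufu KO replicate 1 (down to 0.0368).

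**Figure D2:**
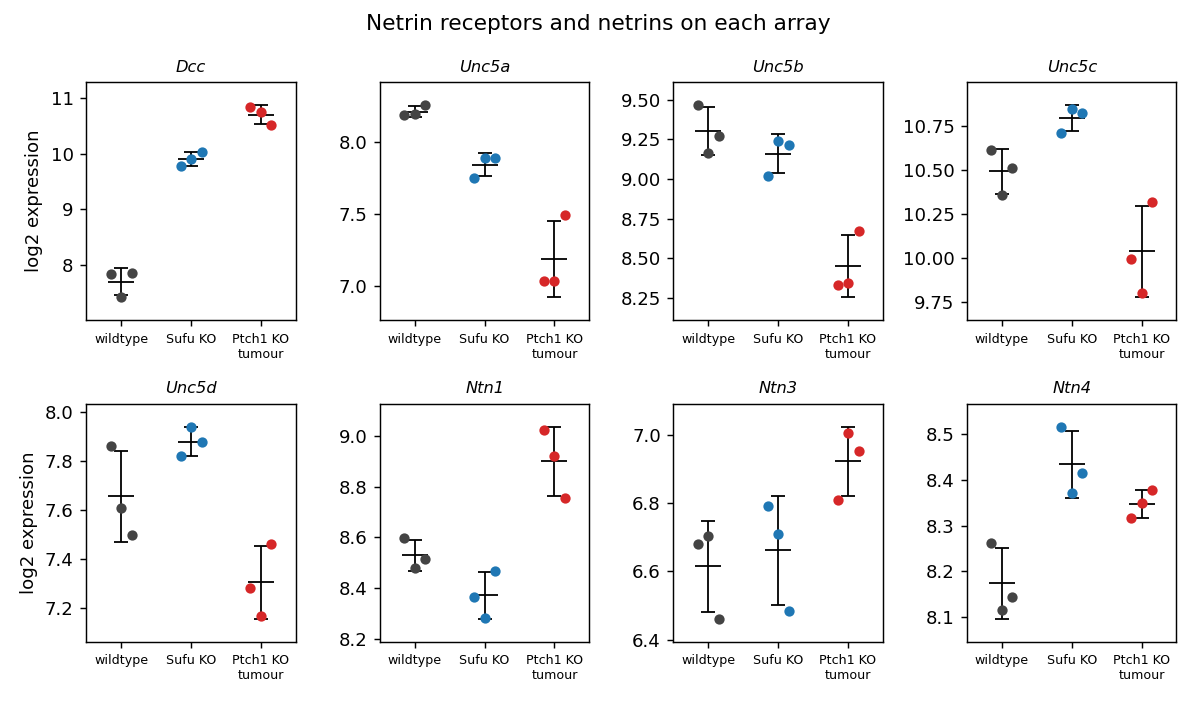
Log2 expression (vertical axis, a separate scale for each gene) of the netrin receptors and netrins on each array (points), with the group mean and SD (bars), for wildtype, Sufu KO and the tumours. Dcc climbs from 7.70 to 9.91 and 10.71, while the tumour arrays lie lowest for each Unc5 receptor.

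Both Robo receptors best known in the brain rose in each mutant, and Slit3 fell. Robo2, a repulsive Slit receptor, read 9.73, 9.52 and 9.44 in wildtype, 10.28, 10.37 and 10.37 in Sufu KO, and 10.10, 10.17 and 10.17 in the tumours. It was 1.71-fold higher in Sufu KO (0.78 ± 0.08, SE, adjusted p = 3.44e-05) and the tumours lay 0.58 ± 0.08 above wildtype (adjusted p = 6.15e-05), every mutant array lying above the wildtype ones. Its mutants differed by -0.20, with a 95% interval from -0.37 to -0.02 (adjusted p = 0.0901). Robo1 read 8.44, 8.45 and 8.62, then 8.76, 8.78 and 8.73, then 9.31, 9.32 and 9.11. Sufu KO exceeded wildtype 1.19-fold (adjusted p = 0.0333) and the tumours did so 1.67-fold (adjusted p = 6.73e-06), which put the tumours 1.41-fold above Sufu KO (adjusted p = 0.000514).

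The 3 Slits are secreted repellents. Slit3 read 9.11, 9.04 and 9.09 in wildtype, 8.60, 8.72 and 8.63 in Sufu KO, and 7.62, 7.58 and 8.09 in the tumours, with no overlap between groups. It was 1.35-fold lower in Sufu KO (adjusted p = 0.0144) and 2.49-fold lower in the tumours (-1.32 ± 0.11, SE, adjusted p = 1.20e-06). Slit1 rose by 0.70 in the tumours (adjusted p = 7.12e-05), from 6.48 ± 0.11 (SD, n = 3) to 7.19 ± 0.15, and lay 0.12 above wildtype in Sufu KO (adjusted p = 0.445). Slit2 read 6.55, 6.61 and 6.33 in wildtype, 6.48, 6.50 and 6.74 in Sufu KO, and 6.88, 6.78 and 6.37 in the tumours. Its groups overlapped, with differences of 0.08 (95% interval -0.20 to 0.36) and 0.18 (-0.10 to 0.46).

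Robo4, a receptor of blood vessel endothelium, fell by 0.24 in the tumours (adjusted p = 0.0181) and stood 0.20 lower in Sufu KO (adjusted p = 0.0662), beside falls in 8 of 9 and 5 of 9 endothelial and pericyte markers. A link between Robo4 and these markers was not tested. Robo3, which controls midline crossing, differed by -0.21 and -0.18 and did not pass. In Sufu KO the Robo1 call ended without wildtype replicate 1 or 2 or any 1 Sufu KO array (adjusted p up to 0.118), while Robo4 passed without Sufu KO replicate 1 (0.0257) and Robo3 without wildtype replicate 3 (0.0174). In the tumours the Robo4 call ended without wildtype replicate 2 or tumour replicate 2 (up to 0.0791), while Slit2 passed without tumour replicate 3 (0.0214) and Robo3 without wildtype replicate 3 (0.0139).

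Among the 20 semaphorins, 5 rose and 4 fell in Sufu KO, and 6 rose and 8 fell in the tumours. Thus 45% and 70% of them changed, beside 25.4% and 46.8% of all genes. In the tumours the lipid-anchored Sema7a showed the largest rise of the family, while in Sufu KO the rises of Sema6a, Sema3d, Sema6c and Sema4c were larger than its own. It read 9.14, 9.22 and 9.07 in wildtype, 9.35, 9.51 and 9.52 in Sufu KO, and 10.55, 10.44 and 10.10 in the tumours, with no overlap. Sufu KO exceeded wildtype 1.25-fold (adjusted p = 0.0441) and the tumours exceeded it 2.33-fold (1.22 ± 0.11, SE, adjusted p = 1.28e-06), and the tumours were 1.87-fold above Sufu KO (adjusted p = 7.16e-05).

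The transmembrane class 6 semaphorins divided by gene. Sema6a, the ligand of Plxna2 and Plxna4 that granule cells need to begin inward migration, read 11.32, 11.14 and 11.08 in wildtype, 11.74, 11.73 and 11.70 in Sufu KO, and 11.52, 11.44 and 11.55 in the tumours. Sufu KO exceeded wildtype 1.46-fold (adjusted p = 0.000231) and the tumours did so 1.25-fold (adjusted p = 0.00260), so its tumour level was the lower of the mutants' (-0.22, adjusted p = 0.0407). Sema6c read 8.25, 8.06 and 8.10, then 8.56, 8.60 and 8.67, then 8.76, 8.65 and 8.62. The rise came to 1.39-fold for Sufu KO (adjusted p = 0.000586) and to 1.46-fold for the tumours (adjusted p = 5.26e-05), while the mutants differed by 0.07 (95% interval -0.09 to 0.23). Sema6d fell in both, by 0.42 and 0.75 log2 units, and Sema6b fell in the tumours by 0.45; the 2 probe sets of Sema6b held the same values on every array.

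Of the 8 transmembrane class 4 and 5 semaphorins, 5 fell and 2 rose in the tumours, where 24.7% of all genes fell and 22.1% rose. Sema5a, a ligand of Plxnb3, read 9.04, 9.14 and 9.31 in wildtype, 8.53, 8.84 and 8.62 in Sufu KO, and 7.97, 7.96 and 8.17 in the tumours. Its groups did not overlap, and it was 1.41-fold lower in Sufu KO (adjusted p = 0.00269) and 2.19-fold lower in the tumours (adjusted p = 1.28e-06). Sema4d, a plexin B ligand that oligodendrocytes make, read 9.12, 9.39 and 9.19, then 8.88, 9.11 and 8.85, then 8.11, 8.14 and 8.43. It was 2.01-fold lower in the tumours than in wildtype (adjusted p = 6.26e-06) and 1.65-fold lower than in Sufu KO (adjusted p = 0.000292). In Sufu KO its brighter probe set read -0.29 (adjusted p = 0.0659) and its dimmer one -0.39 (adjusted p = 0.00288 over all single-gene probe sets).

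Of the other class 4 genes, Sema4a fell in Sufu KO by 0.25 and in the tumours by 0.62, and Sema4g in the tumours by 0.52. Sema4c, a ligand of Plxnb2, rose in Sufu KO by 0.35 and in the tumours by 0.17, and Sema4b rose in the tumours by 0.25. Sema4f read 7.23, 7.35 and 8.48 on tumour replicates 1 to 3, against 8.23, 8.76 and 8.52 in wildtype. Its fall of 0.82 log2 units (adjusted p = 0.0183) was 1.21 (adjusted p = 1.18e-05) without tumour replicate 3. Sema5b differed by -0.10 and -0.19 and did not pass.

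Of the 7 secreted class 3 semaphorins, 1 rose and 1 fell in each mutant. That share, 28.6%, stood beside 25.4% of all genes in Sufu KO and 46.8% in the tumours. Sema3a, a repellent that acts through Nrp1, read 8.06, 7.64 and 7.63 in wildtype, 7.30, 7.53 and 7.60 in Sufu KO, and 6.93, 7.08 and 7.30 in the tumours. The tumours lay 1.59-fold below wildtype (adjusted p = 0.000810), and the difference in Sufu KO was -0.30 (adjusted p = 0.112). Sema3e, the ligand of Plxnd1, fell by 0.46 in Sufu KO (adjusted p = 0.00990) and lay 0.04 below wildtype in the tumours (adjusted p = 0.840). Set against Sufu KO, it was 0.42 higher in the tumours (adjusted p = 0.0125). Sema3d rose by 0.52 and 0.48 with overlapping groups. The other 4, Sema3b, Sema3c, Sema3f and Sema3g, differed from wildtype by between -0.16 and 0.04 and did not pass.

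Semaphorin calls that ended when 1 array was left out were, in Sufu KO, those of Sema7a (any 1 wildtype array, Sufu KO replicate 2 or 3, or tumour replicate 2; adjusted p up to 0.133), Sema3d (wildtype or Sufu KO replicate 2 or 3; up to 0.0969) and Sema4a (wildtype replicate 1 or 2, or Sufu KO replicate 2; up to 0.0795). Sema4d passed there without Sufu KO replicate 2 or tumour replicate 3 (down to 0.0340), and Sema4f without tumour replicate 3 (0.0109). In the tumours they were those of Sema3d (wildtype replicate 2 or 3, tumour replicate 1 or 3; up to 0.0911), Sema4b (wildtype replicate 2, tumour replicate 1 or 3; up to 0.109), Sema4c (any 1 wildtype array, Sufu KO replicate 2, tumour replicate 1 or 3; up to 0.116) and Sema4f (wildtype replicate 2, tumour replicate 1 or 2; up to 0.0891). Sema5b passed there without tumour replicate 3 (0.0167). Between the mutants, the Sema6a call ended without wildtype replicate 2, any 1 Sufu KO array, or tumour replicate 1 or 2 (up to 0.146), and that of Sema3e without tumour replicate 2 (0.0528).

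Of the 11 plexins and neuropilins, 4 rose and 4 fell in Sufu KO, and 3 rose and 4 fell in the tumours. The shares that changed were 72.7% and 63.6%, beside 25.4% and 46.8% of all genes. The 4 class A plexins, signalling partners of neuropilins and receptors of class 6 semaphorins, all changed in both mutants but not in the same direction. In Sufu KO the calls of Plxna1 and Plxna2 each ended under 7 of the 19 alternatives to the processing. Plxna4, a receptor for Sema3a with Nrp1, read 9.13, 9.26 and 9.19 in wildtype, 8.20, 8.44 and 8.09 in Sufu KO, and 7.65, 7.41 and 7.57 in the tumours. It was 1.93-fold lower in Sufu KO (-0.95 ± 0.09, SE, adjusted p = 2.89e-05), 3.14-fold lower in the tumours (-1.65 ± 0.09, adjusted p = 5.90e-08) and 1.63-fold lower in the tumours than in Sufu KO (adjusted p = 0.000172). No other member fell as far from wildtype in either mutant in these fits.

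Plxna1 read 9.68, 9.65 and 9.63 in wildtype, 9.37, 9.51 and 9.33 in Sufu KO, and 8.52, 8.54 and 8.76 in the tumours, a fall of 1.19-fold (adjusted p = 0.0392) and 2.06-fold (adjusted p = 5.23e-07). Plxna3, which pairs with Nrp2 for Sema3f, went the other way, at 8.50, 8.36 and 8.41, then 9.11, 9.05 and 9.22, then 9.09, 9.22 and 9.11. Its mutant arrays lay together above wildtype, 1.62-fold higher in Sufu KO (adjusted p = 3.19e-05) and 1.64-fold for the tumours (adjusted p = 4.03e-06), and they differed from each other by 0.02 with a 95% interval from -0.14 to 0.17.

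Plxna2, the Sema6a receptor of the granule cell lineage, moved in opposite directions, though its Sufu KO call ended under 7 of the 19 alternatives. It read 10.12, 10.02 and 10.02 in wildtype, 10.22, 10.33 and 10.25 in Sufu KO, and 9.67, 9.57 and 9.71 in the tumours. It was 1.16-fold higher in Sufu KO (adjusted p = 0.0371) and 1.32-fold lower in the tumours (adjusted p = 0.000327), and the difference between the mutants was -0.61 ± 0.07 (SE, adjusted p = 4.89e-05). Its ligand Sema6a was higher than wildtype in both.

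Plxnb2, the plexin required for normal granule cell progenitor proliferation, read 10.00, 9.93 and 10.02 in wildtype, 10.68, 10.74 and 10.75 in Sufu KO, and 11.14, 10.93 and 10.80 in the tumours. The rise was 1.67-fold (adjusted p = 6.56e-05) and 1.96-fold (adjusted p = 1.17e-06), with the mutants 0.24 apart (95% interval 0.05 to 0.42, adjusted p = 0.0513). Plxnc1, the receptor of Sema7a, rose with its ligand, by 0.72 in Sufu KO (adjusted p = 0.00229) and 1.14 in the tumours (adjusted p = 2.00e-05), from 8.72 ± 0.22 (SD, n = 3) to 9.44 ± 0.22 and 9.86 ± 0.20. Plxnb3, a plexin of the oligodendrocyte lineage, fell by 0.53 (adjusted p = 0.00907) and 0.99 (adjusted p = 3.94e-05), beside the falls in 6 of 6 oligodendrocyte markers in each mutant. A link between Plxnb3 and these markers was not tested. Of 6 oligodendrocyte precursor markers, 1 rose and 2 fell in Sufu KO, and 3 rose and 1 fell in the tumours. Plxnd1 lay within 0.02 of wildtype in both mutants, with 95% intervals from -0.16 to 0.13 and -0.13 to 0.17.

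Nrp1, the coreceptor of Sema3a, read 7.27, 7.15 and 7.29 in wildtype, 6.88, 7.24 and 7.34 in Sufu KO, and 7.39, 7.41 and 7.46 in the tumours, with differences of -0.08 and 0.18 that did not pass. Nrp2 fell by 0.28 in Sufu KO (adjusted p = 0.0194) and differed by -0.11 in the tumours (adjusted p = 0.319). The Nrp2 call in Sufu KO ended without replicate 2 or 3 of wildtype or replicate 1 or 2 of Sufu KO (adjusted p up to 0.0761), that of Plxna1 without any 1 wildtype array or Sufu KO replicate 1 or 3 (up to 0.115) and that of Plxna2 without wildtype or Sufu KO replicate 2 or 3 or tumour replicate 1 (up to 0.145). In the tumours, Nrp1 passed without Sufu KO replicate 1 (0.0416) and Plxnb1 without tumour replicate 3 (0.0303), and between the mutants Plxnb2 passed without tumour replicate 3 (0.0104).

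**Figure D3:**
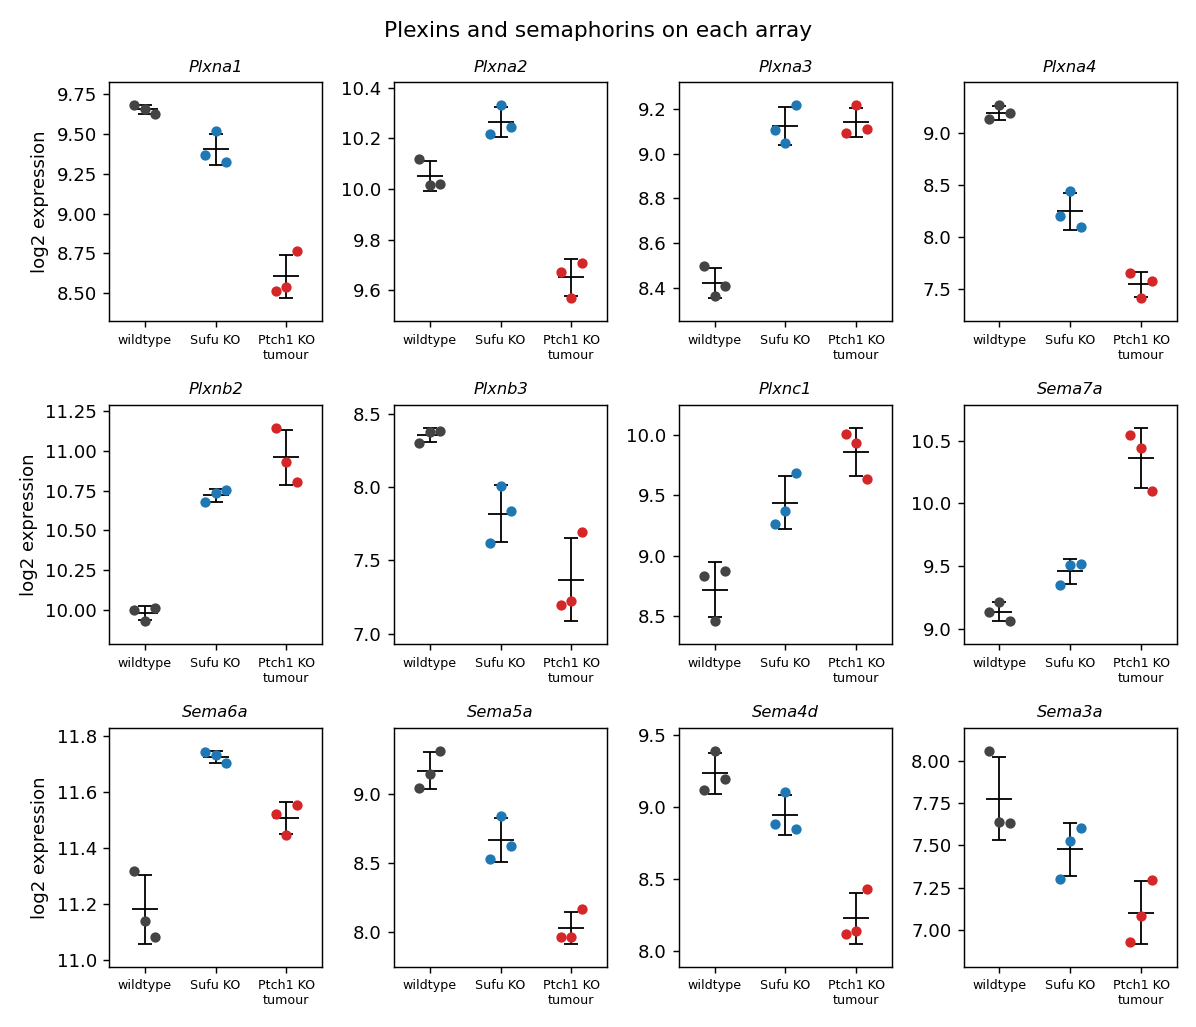
Log2 expression (vertical axis, a separate scale for each gene) of 7 plexins and 5 semaphorins on each array (points), with the group mean and SD (bars), for wildtype, Sufu KO and the tumours. Plxna4 descends from 9.19 to 8.24 and 7.54, Sema7a ascends from 9.14 to 9.46 and 10.36, and Plxna2 is highest in Sufu KO.

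Of the 8 ephrins, 3 rose and 2 fell in Sufu KO, and 3 rose and 3 fell in the tumours. Hence 62.5% and 75% changed, where 25.4% and 46.8% of all genes did. Efna3, a lipid-anchored ligand of EphA receptors, read 7.78, 7.78 and 7.70 in wildtype, 7.25, 7.19 and 7.25 in Sufu KO, and 6.72, 6.69 and 6.98 in the tumours. It was 1.43-fold lower in Sufu KO (adjusted p = 0.000606) and 1.94-fold lower in the tumours (adjusted p = 1.05e-06). Efna4, of the same class, moved upward, from 6.92, 6.79 and 6.69 to 7.10, 7.13 and 7.18, and to 7.49, 7.45 and 7.41. That was a rise of 1.26-fold (adjusted p = 0.00466) and 1.57-fold (adjusted p = 1.07e-05), and for both genes the tumours differed further from wildtype than Sufu KO did (tumours minus Sufu KO, -0.43 and 0.31). Efna5 rose by 0.44 and 0.58, and Efna2 rose by 0.32 in the tumours.

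Of the 3 class B ephrins, which can signal back into the cell that carries them, 2 fell in the tumours and the other did not pass. Efnb1 read 7.64, 7.56 and 7.65 in wildtype, 7.87, 7.74 and 7.87 in Sufu KO, and 7.64, 7.62 and 7.57 in the tumours. It rose by 0.21 in Sufu KO (adjusted p = 0.0331) and lay at -0.01 in the tumours (95% interval -0.15 to 0.14). Efnb2 fell by 0.45 in the tumours, and Efnb3, a ligand found in myelin, by 0.35 in Sufu KO and 0.49 in the tumours. Efna1 did not pass in either mutant, at 0.06 and -0.20. In Sufu KO the Efna5 call ended without wildtype replicate 2 or Sufu KO replicate 3 (adjusted p up to 0.0604) and that of Efnb1 without any 1 wildtype array or Sufu KO replicate 1 or 3 (up to 0.125), while in the tumours Efna1 passed without Sufu KO replicate 3 (0.0482).

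Of 8 EphA receptors tested, 4 fell in Sufu KO and 5 in the tumours, where 12.4% and 24.7% of all genes fell. No EphA receptor passed as higher in either mutant (limma); at an unadjusted p under 0.05, 2 were higher in Sufu KO (Epha3 and Epha6) and 0 in the tumours. With sex, which differed between the groups, as a covariate, both passed as higher in Sufu KO (adjusted p = 0.00419 and 0.00860); over the 19 alternatives the adjusted p ran from 0.00419 to 0.202 for Epha3 and from 0.000620 to 0.194 for Epha6. The EphA differences above 0 were those of Epha6 and Epha3 in Sufu KO (0.33 and 0.29) and Epha2 in the tumours (0.01). Epha8 read 7.78, 7.67 and 7.63 in wildtype, 7.26, 7.18 and 7.26 in Sufu KO, and 6.82, 6.95 and 7.08 in the tumours, 1.38-fold (adjusted p = 0.00109) and 1.67-fold lower (adjusted p = 7.00e-06). Epha5 read 6.78, 6.82 and 6.79, then 6.41, 6.57 and 6.58, then 6.24, 6.24 and 6.24, a fall of 0.28 (adjusted p = 0.00851) and 0.56 (adjusted p = 1.73e-05). Epha4, which binds ephrins of both classes, fell by 0.31 in Sufu KO and 0.58 in the tumours.

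Epha6 differed most between the mutants of the 67 genes. It read 6.83, 6.81 and 6.70 in wildtype, 6.82, 7.19 and 7.34 in Sufu KO, and 5.72, 5.98 and 5.86 in the tumours. The Sufu KO arrays reached from the wildtype level upward, at a difference of 0.33 that did not pass (adjusted p = 0.0570), and all tumour arrays were lowest, 1.91-fold below wildtype (adjusted p = 2.87e-05). Between the mutants it was 2.40-fold lower in the tumours (-1.26 ± 0.12, SE, adjusted p = 1.72e-05). Epha7 fell by 0.28 in Sufu KO and lay 0.08 below wildtype in the tumours (adjusted p = 0.478). Epha3 was 0.42 lower in the tumours than in Sufu KO (adjusted p = 0.00712), with neither mutant past the threshold against wildtype. Epha10, which lacks kinase activity, fell by 0.22 in the tumours, and Epha2 did not pass.

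The 4 EphB receptors among these genes all changed in the tumours, 2 up and 2 down, where 46.8% of all genes changed. Ephb2 had no single-gene probe set here, so its level was not read. Ephb1 read 9.03, 8.91 and 8.94 in wildtype, 9.22, 9.26 and 9.27 in Sufu KO, and 8.46, 8.46 and 8.75 in the tumours. It was 1.22-fold higher in Sufu KO (adjusted p = 0.0224) and 1.33-fold lower in the tumours (adjusted p = 0.00125), and the mutants differed by -0.70 ± 0.08 (SE, adjusted p = 7.68e-05). Its dimmer probe set gave 0.36, -0.44 and -0.80 in the same 3 comparisons, each past the threshold. Ephb4, a receptor prominent in veins, rose by 0.59 in the tumours (adjusted p = 0.00122), where 8 of 9 endothelial and pericyte markers fell. A link between Ephb4 and these markers was not tested. Ephb6, which lacks kinase activity, rose in the tumours by 0.56 (adjusted p = 7.03e-05), while Ephb3 fell by 0.30 (adjusted p = 0.00250).

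In Sufu KO the calls that ended without 1 array were those of Ephb1 (wildtype or Sufu KO replicate 2 or 3; adjusted p up to 0.0830), Epha4 (wildtype replicate 2 or 3, or Sufu KO replicate 1; up to 0.0906) and Epha7 (wildtype replicate 1, or Sufu KO replicate 1 or 2; up to 0.0710), while Epha6 passed without Sufu KO replicate 1 (0.00354), Epha3 without tumour replicate 2 or 3 (down to 0.0230) and Ephb4 without tumour replicate 3 (0.0348). In the tumours the Epha10 call ended without wildtype replicate 1 or 2, Sufu KO replicate 2, or tumour replicate 1 or 2 (up to 0.151), and Epha3 passed without tumour replicate 2 (0.0441).

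**Figure D4:**
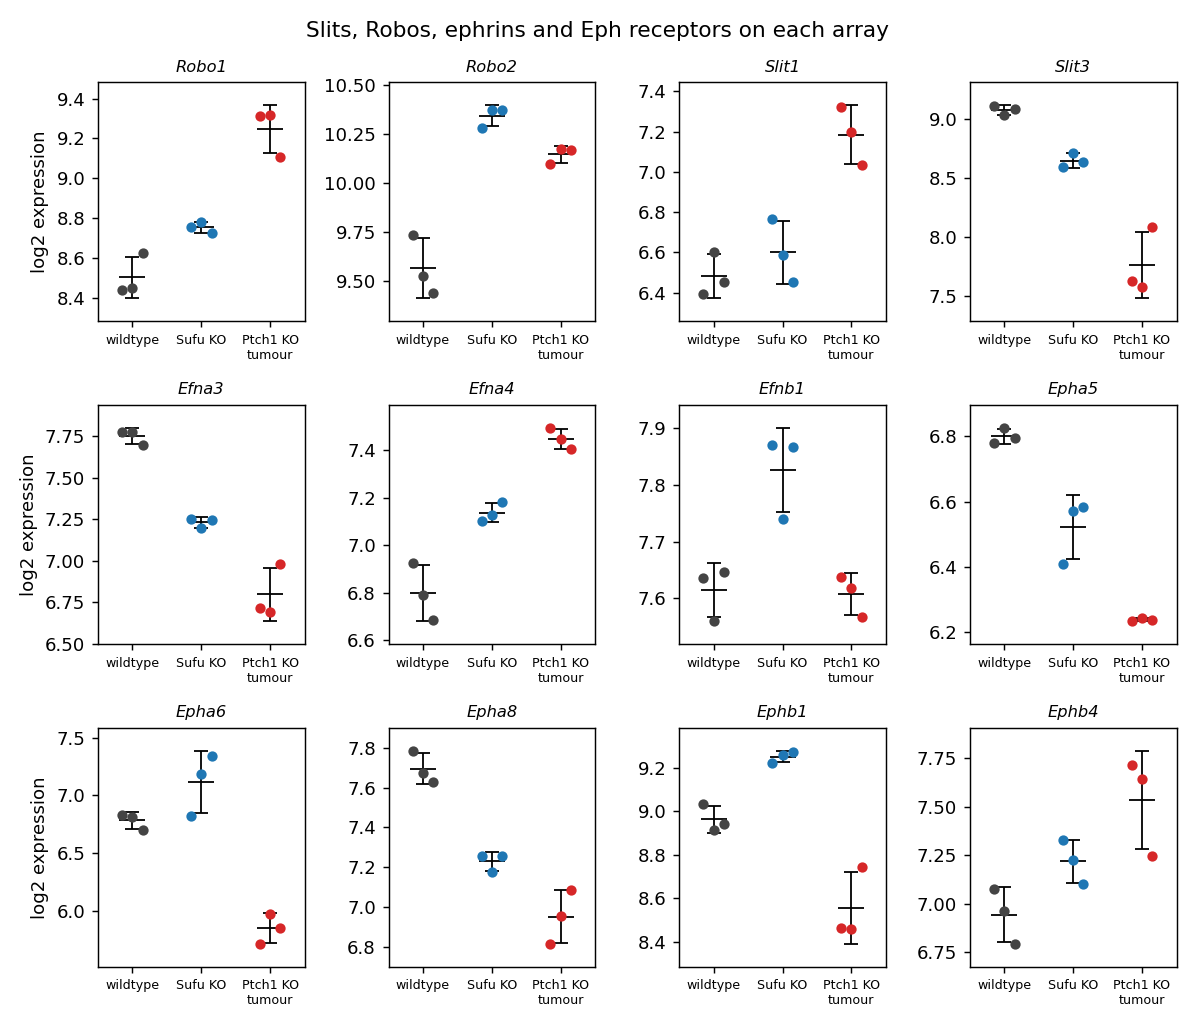
Log2 expression (vertical axis, a separate scale for each gene) of 4 Slit and Robo genes, 3 ephrins and 5 Eph receptors on each array (points), with the group mean and SD (bars), for wildtype, Sufu KO and the tumours. Slit3 and Efna3 step down across the groups, and Ephb1 is highest in Sufu KO and lowest in the tumours.

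The direct comparison of the tumours with Sufu KO asks where these groups differ from each other. It sets Ptch1KO medulloblastoma against SufuKO cerebellum, so it cannot tell a difference of genotype from one of tissue. Over the 67 genes the median difference was -0.14, beside -0.01 over all genes tested. The 9 genes higher in the tumours were, from the largest difference, Sema7a, Dcc, Slit1, Ntn1, Robo1, Ephb6, Sema3e, Plxnc1 and Efna4, from 0.90 to 0.31 log2 units. The 27 lower ones were led by Epha6, followed by Slit3 (-0.89, adjusted p = 0.000119), Plxna1 (-0.80, adjusted p = 2.94e-05), Unc5c, Sema4d, Unc5b, Plxna4 and Ephb1. The members that passed against wildtype in opposite directions were Ephb1 and Plxna2. Among the calls in this comparison, 11 ended without some 1 array. Besides Sema6a and Sema3e they were Efnb1 (Sufu KO replicate 1 or 3, tumour replicate 2 or 3; adjusted p up to 0.0713), Efnb2 (Sufu KO replicate 3, tumour replicate 2; up to 0.0859), Epha4 (any 1 Sufu KO array, tumour replicate 2 or 3; up to 0.126), Epha8 (tumour replicate 1 or 2; up to 0.0870), Ephb3 (Sufu KO replicate 1, tumour replicate 2; up to 0.0890), Plxnb3 (Sufu KO replicate 2, tumour replicate 1 or 2; up to 0.0903), Plxnc1 (Sufu KO or tumour replicate 1 or 2; up to 0.140), Sema3a (wildtype replicate 2, Sufu KO replicate 2 or 3, tumour replicate 1 or 2; up to 0.181) and Sema6b (tumour replicate 1; 0.0620).

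**Figure D5:**
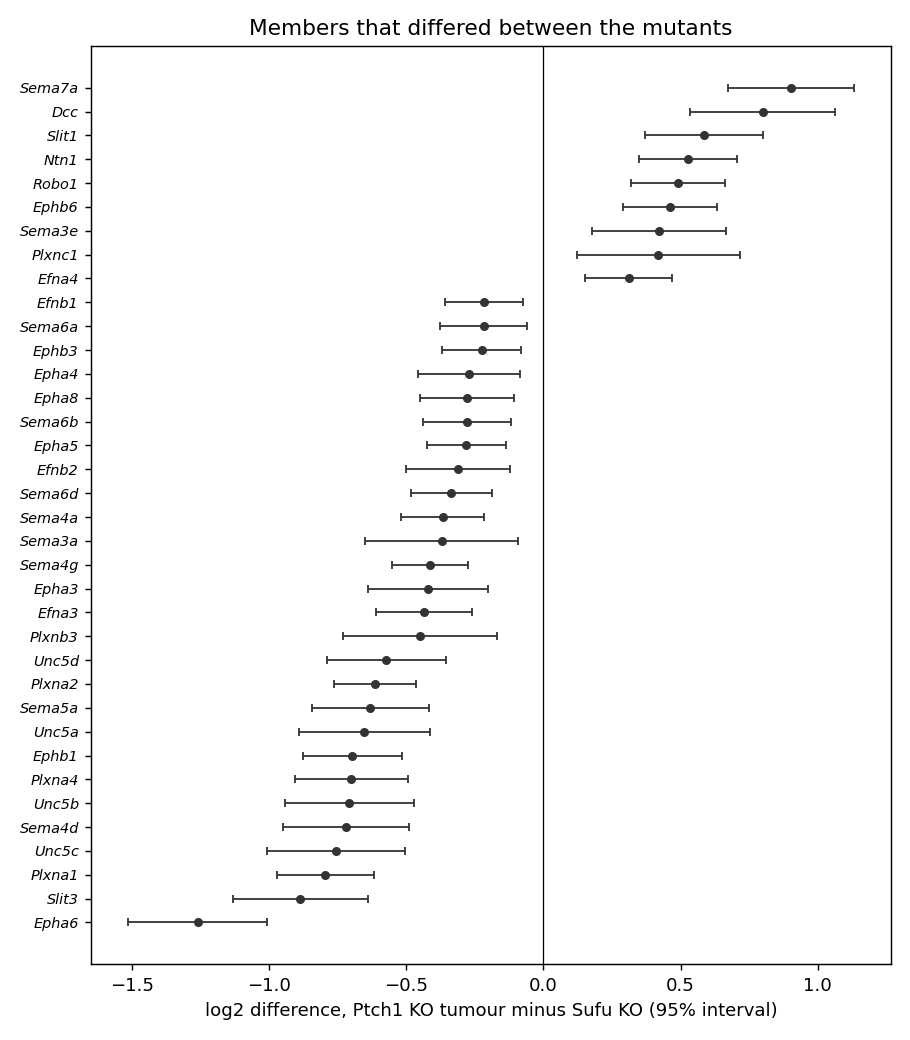
Log2 difference of the tumours minus Sufu KO (horizontal axis) with its 95% interval for the 36 guidance genes that differed between the mutants, ordered by size. Of these, 9 lie right of 0, led by Sema7a at 0.90, and 27 lie left of it, led by Epha6 at -1.26.

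Tumour replicate 3 was often the tumour array nearest to wildtype. Among the 48 members that changed in the tumours, its value was the closest of the 3 to the wildtype mean for 33, against 8 for replicate 1 and 7 for replicate 2. No such count over all genes stands beside it. Along the main axis over all genes tested, tumour replicate 3 also lay nearest to wildtype (26.1, beside 41.3 and 39.9). Whether the guidance genes differ from all genes in this was not tested. Without tumour replicate 3, the members that rose were 19 and those that fell 29, again with no share of all genes beside them.

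Genes that act below or beside these receptors also went both ways. Of 50 tested signal transducers of guidance receptors, 12 rose and 13 fell in Sufu KO (median log2 difference 0.04), and 16 rose and 18 fell in the tumours (median -0.04). Of all genes tested, 13% rose and 12.4% fell in Sufu KO, and 22.1% rose and 24.7% fell in the tumours. Dpysl3, a microtubule-binding protein of the collapsin response family, was 1.97-fold higher in Sufu KO (adjusted p = 1.06e-05), as was Limk1, the kinase that inhibits cofilin, by 1.63-fold. Tiam1, an exchange factor that activates Rac, fell 1.65-fold in Sufu KO and 2.56-fold in the tumours. Chn1, a Rac inhibitor that acts below Epha4, was 2.62-fold lower in tumour RNA (adjusted p = 2.86e-08), and Rnd3 rose 4.25-fold (adjusted p = 9.35e-08).

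Of 26 tested guidance cues and receptors outside the named families, 9 rose and 7 fell in Sufu KO (median 0.05), and 9 rose and 8 fell in the tumours (median 0.02). The shares of all genes that rose and fell were 13% and 12.4% in Sufu KO and 22.1% and 24.7% in the tumours. Neo1, neogenin, the Dcc paralogue that binds netrins and repulsive guidance molecules, rose 1.71-fold in Sufu KO (adjusted p = 2.73e-05). Ptprs, a receptor phosphatase for matrix proteoglycans, rose 1.64-fold there, and Cntn2, an adhesion molecule of newborn granule neurons, 1.61-fold. In the tumours Draxin, a secreted ligand of Dcc, rose 3.89-fold (adjusted p = 3.69e-07). Trim9, a ubiquitin ligase that binds Dcc, fell 2.19-fold, and Lrrc4, a netrin-G ligand at synapses, 2.42-fold.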

How the data were processed

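Per the labels' protocols, tissue was dissected and kept frozen, RNA was isolated with a PureLink RNA Mini kit, and each of 9 samples was labelled with biotin and run on an Affymetrix Mouse Gene 1.0 ST array. The authors deposited log2 expression values per probe set; how they were summarised and normalized is not given in the sources used here. Groups and replicate numbers came from the labels. Of 35556 probe sets, 21789 named a single gene in the platform annotation, 1621 several, and 12146 were unnamed here; 21698 matched RefSeq (GRCm38.p6).

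From the deposited values, the probe set with the highest mean stood for each gene, and a gene was tested if 3 or more arrays read it above their own 25th percentile (16323 of 19938). limma 3.58.1 in R 4.3.3 fitted 1 mean per group over all 9 arrays with eBayes. Tests were two-sided, p-values were adjusted by Benjamini-Hochberg over all genes tested, and the threshold was 0.05. The code was tested on simulated data. Precision is limited by the 3 arrays per group.

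The guidance genes and the marker and pathway lists were chosen with earlier results of these data known. Array values were given for a set list of cerebellar guidance genes, the 2 members per family with the smallest p in each comparison among those called with groups that did not overlap, and members called in opposite directions. Ephb2 was on that set list but had no single-gene probe set. For each pathway list, the 3 genes with the smallest p in each mutant were named. Alternatives varied the filter, normalization, variance prior, samples in the fit, replicate block, sex covariate (read from Xist), probe set choice, array weights, fold minimum and each array left out. A level of a probe set was not compared with that of another.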

Additional observations from a re-analysis of the deposited data

Results flagged for a closer look

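Members that passed the threshold against wildtype in opposite directions in the mutants were Ephb1 and Plxna2, and for each the difference between the mutants was tested directly in the limma fit. Ephb1 was 0.29 log2 units above wildtype in Sufu KO and -0.41 from it in the tumours, and the tumours differed from Sufu KO by -0.70 (adjusted p = 7.68e-05), with the 3 groups apart from each other. Plxna2 was 0.21 above wildtype in Sufu KO and -0.40 from it in the tumours, and the tumours differed from Sufu KO by -0.61 (adjusted p = 4.89e-05), again with no overlap. For both genes the rise in Sufu KO ended with sex as a covariate (adjusted p = 0.0955 for Ephb1 and 0.166 for Plxna2), while the difference between the mutants held under each of the 19 alternatives. Genotype and tissue cannot be told apart in that difference.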

How the results depend on the processing

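Of the members called, 19 of 33 in Sufu KO, 39 of 48 in the tumours and 25 of 36 between the mutants were called under each of the 19 alternatives other than the fold minimum that gave a value for them, and 0 called differences changed sign. Asking for at least 1 log2 unit as well left 1 higher and 0 lower in Sufu KO, 3 and 6 in the tumours, and 0 and 1 between the mutants. With array weights, whose estimation did not fully converge, 19 were higher between the mutants. Leaving out 1 array gave 9 to 20 higher and 11 to 18 lower in Sufu KO, 17 to 22 and 25 to 29 in the tumours, and 7 to 12 and 19 to 27 between the mutants. Calls ended without some 1 array for 14, 8 and 11 members. The counts under the alternatives in this section are of members only, with no shares of all genes from the same fits beside them.

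Whether the replicate numbers pair the samples could not be settled. Deviations from the group means correlated from -0.31 to 0.35 for arrays of the same number and from -0.35 to 0.40 for others. Between wildtype and Sufu KO, correlations ran from 0.08 to 0.35 for the same number and from -0.35 to 0.28 for others. Those of the same number in the remaining pairs of groups ran from -0.31 to 0.12. With 3 arrays a group the deviations are not independent, so these ranges cannot exclude pairing. With the replicate block the counts were 17 higher and 15 lower in Sufu KO, 20 and 27 in the tumours, and 9 and 25 between the mutants. The block ended the calls of Plxna1 (adjusted p = 0.0613), Plxna2 (0.0613) and Robo1 (0.0567) in Sufu KO, of Epha10 (0.0611) in the tumours, and of Plxnc1 (0.0509), Sema3a (0.0691) and Sema6a (0.0502) between the mutants. It added Epha6 (0.0477) and Ephb4 (0.0235) in Sufu KO and Ephb4 (0.0101) between the mutants. The sex covariate gave 13 and 15, 17 and 28, and 10 and 27. After a second quantile normalization the split between the mutants was 13 and 26, and the Sema6a call between them ended (adjusted p = 0.437). The filter at the array median gave no value for some named members, which it removed. The cause of these shifts was not tested. Only 3 arrays per group limit how small a change could pass.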
